A study of Mus musculus with 15 samples.

Results

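The p53 pathway and its DNA damage response genes were followed in mammary tissue through 10 genes: Trp53, Mdm2, Ccng1, Cdkn1a, Gadd45a, Gadd45b, Btg2, Sesn1, Bax and Phlda3. They were taken by gene name from the expression tables of 15 mice, as 10 of 52526 gene names, with earlier results of these data known. All 10 were among the 9511 genes that reached at least 1 CPM (reads of a gene scaled to all mapped reads of its library) in at least 7 mice and were therefore tested. Female nu/nu nude mice (Crl:NU-Foxn1nu) carried subcutaneous osmotic pumps for 16 weeks, starting after 8 weeks of age. Pumps of 7 mice delivered BDE-47, a polybrominated diphenyl ether flame retardant, intended to reach 0.03 mg/kg/d, dissolved in PEG300 with 1% DMSO, and those of 8 mice delivered that vehicle alone. All 15 mice carried the Foxn1nu allele, which leaves them without a thymus and thus with few T cells, so that the vehicle mice are controls for BDE-47 and not for the strain. Normal tissue of the left 4th mammary fat pad gave 1 library of 3′ end tags per mouse. Mice of this experiment were also used for xenograft implantation, and which of them carried a graft is not given in the sample labels.

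p53, the product of Trp53, is a transcription factor that is held at a low level by the ubiquitin ligase Mdm2 and becomes stable when kinases such as Atm sense broken DNA. Stable p53 switches on genes that stop the cell cycle, help repair or start apoptosis, and it also switches on Mdm2, which closes a negative feedback loop. Because p53 is controlled mainly at the protein level, the transcripts of its target genes are the usual readout of its activity in tissue, although several of them also respond to other stress signals.

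The promoters of the 10 genes were searched first, since direct targets of p53 often carry its binding sequence near the start site. The p53 motif is a pair of decamers, each made of purines, then C, an A or T at both of the next positions, then G and pyrimidines. In RefSeq promoters on the mouse build GRCm38.p6, from 250 bases before to 50 bases after each start, a decamer with no mismatch was present in 7 of the 10 genes, against 9.6% of 27025 genes searched. A full motif, taken here as 2 decamers with intact core bases, at most 2 mismatches in all and at most 13 bases between them, was present in 3 of the 10 genes (Cdkn1a, Bax and Sesn1), against 2.47% of all genes. Such a match describes the letters of the window and is not a measured binding site. The 7 stretches are shown because they mark which genes carry the full motif (3 genes) or only a perfect decamer close to a start. Each is written 5′ to 3′ on the strand of its gene, with the full motif or, where there was none, the perfect decamer in capitals.

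Cdkn1a, chr17:29090888-29090978, plus strand: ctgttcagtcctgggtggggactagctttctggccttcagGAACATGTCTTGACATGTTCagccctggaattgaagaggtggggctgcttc
Bax, chr7:45467039-45467139, minus strand: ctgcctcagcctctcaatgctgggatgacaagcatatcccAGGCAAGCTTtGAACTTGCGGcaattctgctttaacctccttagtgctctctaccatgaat
Sesn1, chr10:41887213-41887315, plus strand: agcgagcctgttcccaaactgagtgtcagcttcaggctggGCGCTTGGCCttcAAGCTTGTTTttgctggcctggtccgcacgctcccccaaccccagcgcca
Mdm2, chr10:117710895-117710984, minus strand: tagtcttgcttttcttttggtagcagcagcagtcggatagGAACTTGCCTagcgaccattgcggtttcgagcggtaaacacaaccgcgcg
Ccng1, chr11:40755422-40755511, minus strand: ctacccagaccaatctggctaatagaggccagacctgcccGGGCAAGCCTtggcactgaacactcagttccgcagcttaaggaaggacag
Gadd45a, chr6:67037408-67037487, minus strand: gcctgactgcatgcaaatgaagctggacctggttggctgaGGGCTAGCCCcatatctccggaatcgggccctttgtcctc
Trp53, chr11:69580244-69580333, plus strand: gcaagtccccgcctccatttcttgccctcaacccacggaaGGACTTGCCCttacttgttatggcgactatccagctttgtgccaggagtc

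In Cdkn1a the decamers abut and differ from the motif at 1 base in all. The motif of Bax has 2 mismatches with 1 base between the decamers, and that of Sesn1 has 2 mismatches with 3 bases between. Cdkn1a and Sesn1 each have a pair of annotated starts, and the match lay in the window of 1 of them. The windows of Btg2, Gadd45b and Phlda3 held no decamer without a mismatch, which speaks only of these 300 bases.

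Each value below is a level on the log2(CPM) scale, where a difference of 1 is a 2-fold difference, and a gene under 1 CPM in a mouse is listed at 0. Libraries held 10.06 to 19.58 M mapped reads, with medians of 15.2 M in vehicle mice and 14.4 M in BDE-47 mice, and the groups overlapped in depth (two-sided exact permutation p = 0.991). At such depth a level just above 0 rests on some 10 to 20 reads. Even so, genes averaging 10 to 20 CPM were listed at 0 in 2.3% to 44.5% of their values, depending on the mouse. That share was highest in BDE-47 4 (44.5%), BDE-47 7 (43.1%), vehicle 7 (38.9%) and vehicle 5 (37.2%). A 0 here is thus not evidence that a gene was silent. The tissue was mixed. All 8 B cell markers were above 0 in vehicle 6 and vehicle 8, with summed levels of 650 and 722 CPM against 0 to 9.87 CPM in the other 13 mice. These same mice had the lowest summed adipocyte markers, 325 and 872 CPM against 2444 to 20442 CPM elsewhere. Summed skeletal muscle markers reached 105109 CPM in BDE-47 6 against 47.7 to 210 CPM elsewhere. Members are therefore also given without these 3 mice where that matters. The part of the tissue mixture in any value below was not tested beyond that.

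No gene of the pathway passed a test for a difference between BDE-47 and vehicle mice. The differences given are of group mean log2 levels, BDE-47 minus vehicle. The mean was higher with BDE-47 in 4 genes (Trp53, Gadd45a, Gadd45b, Phlda3) and lower in 6 (Cdkn1a, Mdm2, Ccng1, Bax, Sesn1, Btg2), where 49.1% of the 9511 genes tested had a higher and 50.9% a lower mean. Gadd45b alone was past 2-fold and higher (1 of 10, against 13% of genes tested), none was past 2-fold and lower (13.2% of genes tested), and past 2-fold in either direction lay 26.3% of genes tested. The median difference of the 10 genes was -0.18 (0.03 without vehicle 6 and vehicle 8) against -0.02 over all genes tested, and their median size of difference, whatever its sign, was 0.47 against 0.58.

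With limma across all 9511 genes, the Benjamini-Hochberg adjusted p of the 10 genes lay between 0.982 and 0.996. At an adjusted p under 0.05, 0% of all genes tested passed, with a lowest adjusted p of 0.982. At an unadjusted limma p under 0.05, 443 genes (4.66%) and none of the 10 passed. For each gene alone, an exact two-sided permutation test over the 6435 ways to choose 7 of the 15 mice was also made, for which the smallest possible p was 0.000155. None of the 10 exact p-values, which ran from 0.163 to 0.849 and were not adjusted, was under 0.05. The values of both groups overlapped in all 10 genes. Groups that did not overlap were found for 0.0105% of genes tested, which was 1 gene, Tef, a circadian transcription factor outside the pathway. In whole tissue, fewer cells of a type and less RNA per cell cannot be told apart, which holds for every level given here.

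**Figure D1:**
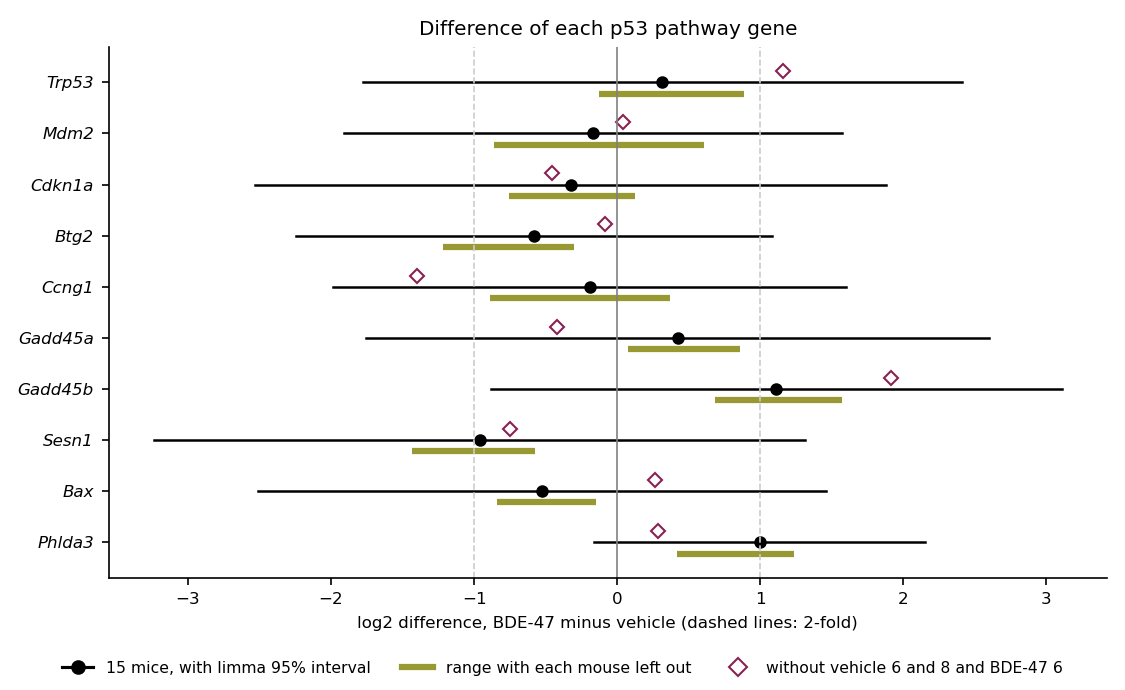
Difference of group means (BDE-47 minus vehicle, log2 CPM) for each of the 10 p53 pathway genes, as a point with its 95% interval from limma. Thick bars span the values with each mouse left out in turn, diamonds leave out vehicle 6, vehicle 8 and BDE-47 6 together, and dashed lines mark 2-fold. All 10 intervals include 0, with Gadd45b (1.11) and Phlda3 (1.00) farthest to the right and Sesn1 (-0.96) farthest to the left.

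The intervals show how large a difference this design could have missed. Standard errors of the log2 differences ran from 0.57 for Phlda3 to 1.13 for Sesn1, with a median of 0.99. The 95% interval of Sesn1, the widest, ran from a ratio of 0.106 to a ratio of 2.49 between BDE-47 and vehicle mice. The interval of Gadd45b reached furthest upward, to a ratio of 8.62. Even the narrowest, that of Phlda3, ran from 0.895 to 4.45. Changes of 2-fold in either direction were thus within the interval of 8 of the 10 genes, while those of Gadd45b and Phlda3 did not reach a 2-fold lower level.

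Trp53 encodes p53 itself and lies on chromosome 11, from 69580348 to 69591873. Its lowest, median and highest levels were 0, 3.72 and 4.92 in vehicle mice and 0, 3.95 and 6.03 in BDE-47 mice. The gene was listed at 0 in vehicle 2 and BDE-47 4, and the ranges of the groups covered nearly the same span. The difference was 0.32 (SE 1.04, exact permutation p = 0.747). It turned to -0.13 without vehicle 2 and to -0.12 without BDE-47 7, the mouse with the highest level. In the other direction, it was 0.90 without vehicle 6 and vehicle 8 and 1.16 without these and BDE-47 6 (exact permutation p = 0.305). A processed pseudogene, Trp53-ps, has its own row in the tables, and reads that match both copies may have been split between them.

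Mdm2 (chromosome 10, 117688875 to 117710758), the ligase that marks p53 for destruction and is itself a p53 target, gave 0, 5.37 and 6.66 in vehicle mice. In BDE-47 mice its lowest, median and highest levels were 0, 5.71 and 6.38. Vehicle 4 and BDE-47 7 were listed at 0, and 12 of the other 13 mice were at 4.82 or above, with BDE-47 2 at 3.37. The difference of -0.17 (SE 0.86, exact permutation p = 0.849) moved from -0.86 without vehicle 4 to 0.61 without BDE-47 7.

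Ccng1 (chromosome 11, 40748552 to 40755309) encodes cyclin G1, a p53 target that recruits a phosphatase to Mdm2. It was above 0 in all 15 mice, with levels of 0.51, 5.03 and 6.08 in vehicle mice and 0.96, 4.72 and 8.53 in BDE-47 mice. The highest level, from 7229 reads, was that of BDE-47 6, the mouse with the muscle markers, and the next highest of any mouse was 6.08. Vehicle 8, BDE-47 5 and BDE-47 7 were far below the rest, at 0.51, 0.96 and 1.88. The difference was -0.19 (SE 0.89, exact permutation p = 0.834). Without BDE-47 6 it was -0.89, and the ratio of mean CPM, which gives that mouse most weight, had the opposite sign at 1.06 on the log2 scale. Without vehicle 6, vehicle 8 and BDE-47 6 the difference was -1.40 (exact permutation p = 0.117).

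Cdkn1a (chromosome 17, 29090979 to 29100722) encodes p21, the inhibitor of cyclin-dependent kinases through which p53 arrests cells before DNA synthesis. It carried the full motif with the fewest mismatches, shown above. Levels in vehicle mice were 0, 3.38 and 5.28, and in BDE-47 mice 0, 2.69 and 5.29. The gene was listed at 0 in vehicle 7, BDE-47 2 and BDE-47 5, while vehicle 3, vehicle 8, BDE-47 4 and BDE-47 6 were highest, between 4.74 and 5.29. The groups therefore reached the same top level. The difference was -0.32 (SE 1.09, exact permutation p = 0.751), and it became 0.12 without either of the BDE-47 mice listed at 0.

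**Figure D2:**
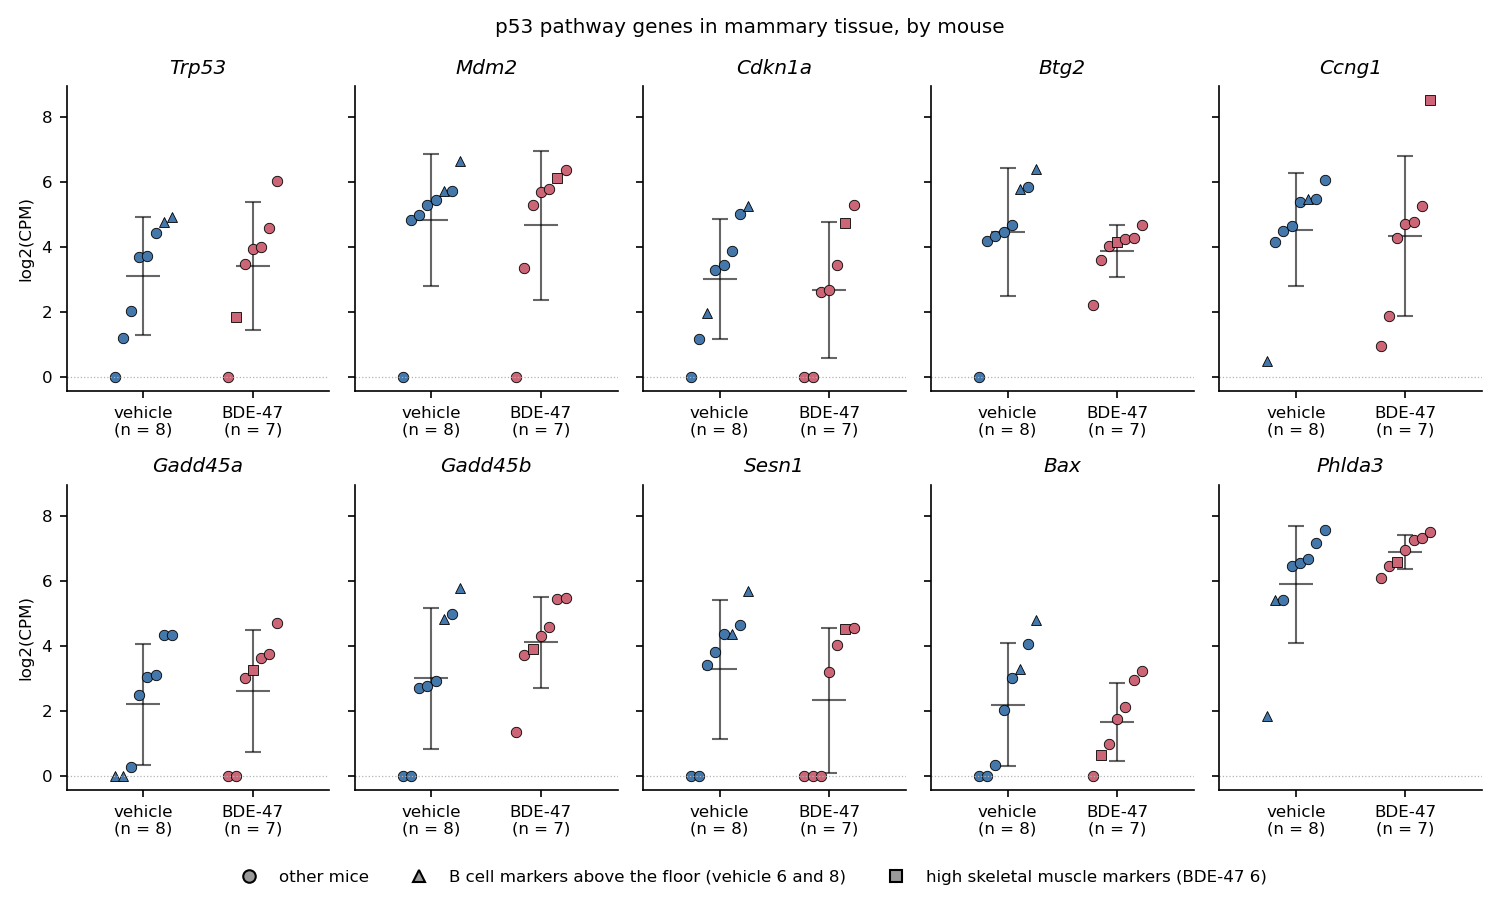
Level (log2 CPM) of each of the 10 p53 pathway genes in each of the 15 mice, with vehicle and BDE-47 mice side by side and the mean ± SD of each group as bars. Triangles are the mice with B cell markers (vehicle 6 and 8) and squares the mouse with high muscle markers (BDE-47 6). Values of the groups overlap in all 10 genes, and 22 of the 150 values lie at 0.

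Gadd45a and Gadd45b belong to a family of small stress proteins that bind PCNA and p21 and activate p38 and JNK signalling. Gadd45a, the classical p53 target of the family (chromosome 6, 67035096 to 67037407), had levels of 0, 2.78 and 4.35 in vehicle mice and 0, 3.26 and 4.70 in BDE-47 mice. It was listed at 0 in both mice with B cell markers, vehicle 6 and vehicle 8, and in BDE-47 2 and BDE-47 4. The difference of 0.42 (SE 1.08, exact permutation p = 0.672) became -0.31 without vehicle 6 and vehicle 8. Its locus overlaps the noncoding gene E230016M11Rik, and whether counting used strand is not given in the sources used here, so these reads may include both.

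Gadd45b (chromosome 10, 80930091 to 80932204) is induced mainly through NF-κB and TGF-β. In vehicle 1 to 8 its levels were 2.77, 0, 2.72, 4.99, 0, 5.79, 2.94 and 4.84. In BDE-47 1 to 7 they were 4.31, 4.58, 3.74, 5.45, 1.36, 3.91 and 5.48. All 7 BDE-47 mice were above 0 against 6 of 8 vehicle mice, and 6 of the 7 were at 3.74 or above, as were 3 of the 8 vehicle mice, including both with B cell markers. The difference, the largest of the group, was 1.11 (SE 0.99, limma adjusted p = 0.982, exact permutation p = 0.265). It was 1.88 without vehicle 6 and vehicle 8 (exact permutation p = 0.0699) and 1.92 without these and BDE-47 6 (exact permutation p = 0.0866). The ratio of mean CPM was smaller, at 0.45 on the log2 scale.

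Btg2 (chromosome 1, 134074865 to 134079155) encodes an antiproliferative protein that recruits the CCR4-NOT deadenylase, and it is a p53 target that also answers to growth factors as an immediate early gene. In vehicle 1 to 8 its levels were 4.35, 4.69, 0, 4.19, 5.86, 5.78, 4.46 and 6.39. In BDE-47 1 to 7 they were 2.22, 4.24, 3.61, 4.67, 4.02, 4.15 and 4.27. The 3 highest vehicle mice lay above every BDE-47 mouse, as did vehicle 2, though barely (4.69 against 4.67). Vehicle 3 was listed at 0 and lay below every BDE-47 mouse. The difference was -0.58 (SE 0.82, exact permutation p = 0.514). Without vehicle 3 the difference was -1.22 (limma adjusted p = 0.967, exact permutation p = 0.0128, not adjusted for the mice left out in turn). That exact p was the lowest of any of the 10 genes in any setting tried. Of the 3 highest, vehicle 6 and vehicle 8 were the mice with B cell markers, and without them, with vehicle 3 kept, the difference was -0.04 (exact permutation p = 0.956).

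Sesn1 (chromosome 10, 41810574 to 41908436) encodes sestrin 1, a p53 target that limits mTORC1 signalling and helps to regenerate peroxiredoxins, and so ties p53 to oxidative stress. Levels in vehicle mice were 0, 4.09 and 5.69, and in BDE-47 mice 0, 3.19 and 4.56. Sesn1 was listed at 0 in 2 vehicle mice (5 and 7) and in 3 BDE-47 mice (4, 5 and 7). All of these but BDE-47 5 were the mice with the highest shares of values at 0, as given above. Vehicle 6 was highest, and apart from the mice listed at 0 the groups covered 3.43 to 5.69 and 3.19 to 4.56. The difference of -0.96 (SE 1.13, exact permutation p = 0.375), the lowest of the group, kept its sign whichever mouse was left out, between -1.43 and -0.57. It was -0.38 without vehicle 6 and vehicle 8 together (exact permutation p = 0.802).

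Bax (chromosome 7, 45461695 to 45466903) encodes the pore-forming protein that opens the outer mitochondrial membrane during apoptosis. It had the lowest mean level of the 10 genes. Its lowest, median and highest levels were 0, 2.54 and 4.81 in vehicle mice and 0, 1.76 and 3.24 in BDE-47 mice. Vehicle 1, vehicle 7 and BDE-47 1 were listed at 0, and the highest mouse, vehicle 6, rested on 437 reads. The difference was -0.52 (SE 0.98, exact permutation p = 0.533). Without vehicle 6 and vehicle 8 it was 0.10.

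Phlda3 (chromosome 1, 135766085 to 135769134) encodes a p53-induced pleckstrin homology protein that competes with Akt for membrane lipids and so restrains survival signalling. It had the highest mean level of the 10 genes and was above 0 in every mouse. In vehicle 1 to 8 its levels were 6.57, 6.68, 7.58, 6.48, 7.18, 1.85, 5.43 and 5.41. In BDE-47 1 to 7 they were 7.27, 6.95, 7.32, 7.52, 6.11, 6.60 and 6.47. All BDE-47 mice lay between 6.11 and 7.52, within the span of 5 vehicle mice or just below it, whereas vehicle 6 stood far below all others and vehicle 7 and vehicle 8 next to lowest. The difference was 1.00 (SE 0.57, limma adjusted p = 0.982, exact permutation p = 0.163), the smallest p of the group and yet at rank 813 of the 9511 genes by limma p. It was 0.42 without vehicle 6 and 0.24 without vehicle 6 and vehicle 8 (exact permutation p = 0.507). In vehicle 6 and vehicle 8 low Phlda3 went with high B cell and low adipocyte markers. Vehicle 7, at a like level to vehicle 8, had summed B cell markers of 9.87 CPM and adipocyte markers of 12676 CPM. The part of the tissue mixture in these levels of Phlda3 was not tested.

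**Figure D3:**
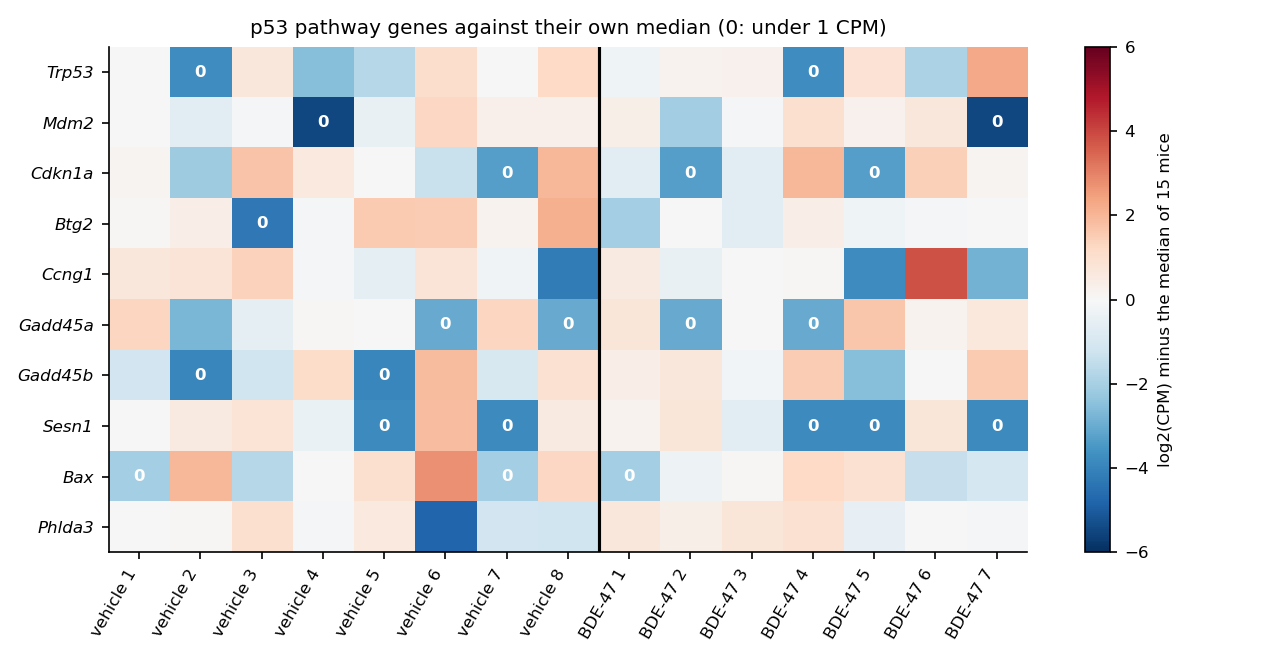
Level of the 10 p53 pathway genes in the 15 mice, coloured by log2 CPM minus the median of that gene over all mice, with a row for each gene, a column for each mouse and vehicle mice to the left. Cells marked 0 are under 1 CPM. Values at 0 are spread over 13 mice of both groups, and only Ccng1 and Phlda3 are above 0 in every mouse.

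Because 3′ end tags yield about 1 tag per transcript, these levels needed no scaling to transcript length to be ordered. By mean level over the 15 mice the order was Phlda3, Mdm2, Ccng1, Btg2, Gadd45b, Trp53, Cdkn1a, Sesn1, Gadd45a and Bax. Phlda3 was 1.60 above Mdm2. The other steps between neighbours were at most 0.67, less than any within-group standard deviation of the 10 genes (1.37 to 2.18). The step of 1.60 was also below the within-group standard deviation of Mdm2 (2.15). Whether neighbours differ in level within mice was not tested. The median within-group standard deviation was 1.87, against 1.81 over all genes tested. The 10 genes were listed at 0 in 14.7% of their 150 values, against 20.7% of the values of all genes tested. Per mouse, 7 to 10 of the genes were above 0, with all 10 in BDE-47 3 and BDE-47 6, and with 7 in vehicle 7 and BDE-47 4.

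The pattern of each gene over the mice was then compared with that of all others. Likeness was measured as the root mean square difference of centred log2 levels over the 15 mice, where a smaller value is a closer pattern. The measure is not scaled to the spread of each gene. For every member, genes outside the pathway were nearer than any other member, but far more genes outside the pathway than members could be nearest. Phlda3 was nearest to Rock2 (0.56) and Pigq (0.61), and Btg2 to Mtmr4 (0.77) and Rnpepl1 (0.85). Trp53 was nearest to Irak4 (0.90) and Ctage5 (0.91), Gadd45b to Mesd (0.92) and Lgals8 (0.94), and Trappc6a was among the nearest to Gadd45a (0.93). Mdm2 was nearest to Polr1d (0.95) and Mpp6 (1.05), and Cdkn1a to Rbm26 (1.04) and Akip1 (1.14). Ccng1 was nearest to Pgm2 (1.13) and B230118H07Rik (1.18), Sesn1 to Nsfl1c (1.02) and 9430038I01Rik (1.04), and Bax to Rgmb (0.97) and Rpl13a-ps1 (0.99). These are the nearest of 9511 genes and carry no test. The closest pair within the pathway was Bax and Btg2, at 1.33, where their own root mean square deviations over the mice were 1.53 and 1.47. The nearest member of every other gene was at 1.92 or above, each time more than that gene's own deviation. For the feedback pair, the member nearest to Trp53 was Gadd45b, at 2.14, and that nearest to Mdm2 was Bax, at 2.33.

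Lists of related genes, also chosen with earlier results of these data known, were described in the same way. Of 40 other p53 target genes, 29 could be tested, of which 15 had a higher and 14 a lower mean with BDE-47, with a median difference of 0.02 and none at an adjusted p under 0.05. Past 2-fold lay 4 that were higher and 4 that were lower, near the shares over all genes tested (13% and 13.2%). Perp, a desmosomal p53 target of epithelia, had a median level of 2.84 in vehicle and 4.94 in BDE-47 mice (difference 1.67, limma adjusted p = 0.982, exact permutation p = 0.0942). All 8 luminal markers had a higher mean with BDE-47, 5 of them past 2-fold (against 49.1% and 13% of all genes tested). Their median of 1.09 was -0.13 without vehicle 6 and vehicle 8. Their summed levels ran from 44.9 to 2729 CPM in vehicle mice and from 164 to 3543 CPM in BDE-47 mice. All 7 tested keratinocyte and basal markers had a higher mean as well, with a median of 0.59. Their part in the value of Perp was not tested. Ppm1d, which encodes the phosphatase Wip1 that switches the response off, was above 0 in 2 of 8 vehicle and 5 of 7 BDE-47 mice (difference 1.39, exact permutation p = 0.131). The 4 that were past 2-fold and lower were Sesn2 (-1.30), which is described with the paralogs, and Rap2b (-1.35), Dcxr (-1.20) and Tnfrsf10b (-1.01), named after their values were seen. Rps27l gave -0.96 (limma adjusted p = 0.982). The p53 targets Bbc3 (Puma) and Zmat3 gave 0.29 and 0.73. Pmaip1 (Noxa) and Gdf15 were each above 0 in only 2 vehicle mice and 1 BDE-47 mouse and were not tested.

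Among 17 tested p53 regulators and family members, 6 had a higher and 11 a lower mean, with a median of -0.16 and none at an adjusted p under 0.05. The median turned to 0.13 without vehicle 6 and vehicle 8 and to 0.34 without the 3 mice. Mdm4, the partner that blocks the transactivation domain of p53, gave 0.90 (exact permutation p = 0.448). Rfwd2, another ubiquitin ligase for p53, gave 1.24 (exact permutation p = 0.253), and Crebbp, its acetyltransferase, gave -0.44. Trp63, the p53 relative that marks basal epithelium, gave -1.31 (exact permutation p = 0.138), opposite in sign to the keratinocyte and basal markers. Trp73 was above 0 in 1 BDE-47 mouse alone.

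Of the sensors of damage, 15 of 21 were tested, with 7 higher and 8 lower and a median of -0.03. That median was 0.29 without vehicle 6 and vehicle 8 and 0.33 without the 3 mice. Atm, the kinase that senses double-strand breaks, gave 0.91 (exact permutation p = 0.406), and Chek2, the kinase it activates, was above 0 in 4 vehicle and 2 BDE-47 mice and was not tested. The smallest limma p-values belonged to Rnf8, a ubiquitin ligase at breaks (1.48, exact permutation p = 0.172), and Mre11a, a nuclease that binds broken ends (1.26, exact permutation p = 0.206), and among genes with a lower mean to Rnf168 (-0.64) and Topbp1 (-0.57). Of 16 tested apoptosis genes, 6 were higher and 10 lower, with a median of -0.15. Bcl2l11, which encodes the BH3-only protein Bim, gave 1.15 (exact permutation p = 0.301), Bik gave 0.85 and Bok gave -1.42 (exact permutation p = 0.0729).

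**Figure D4:**
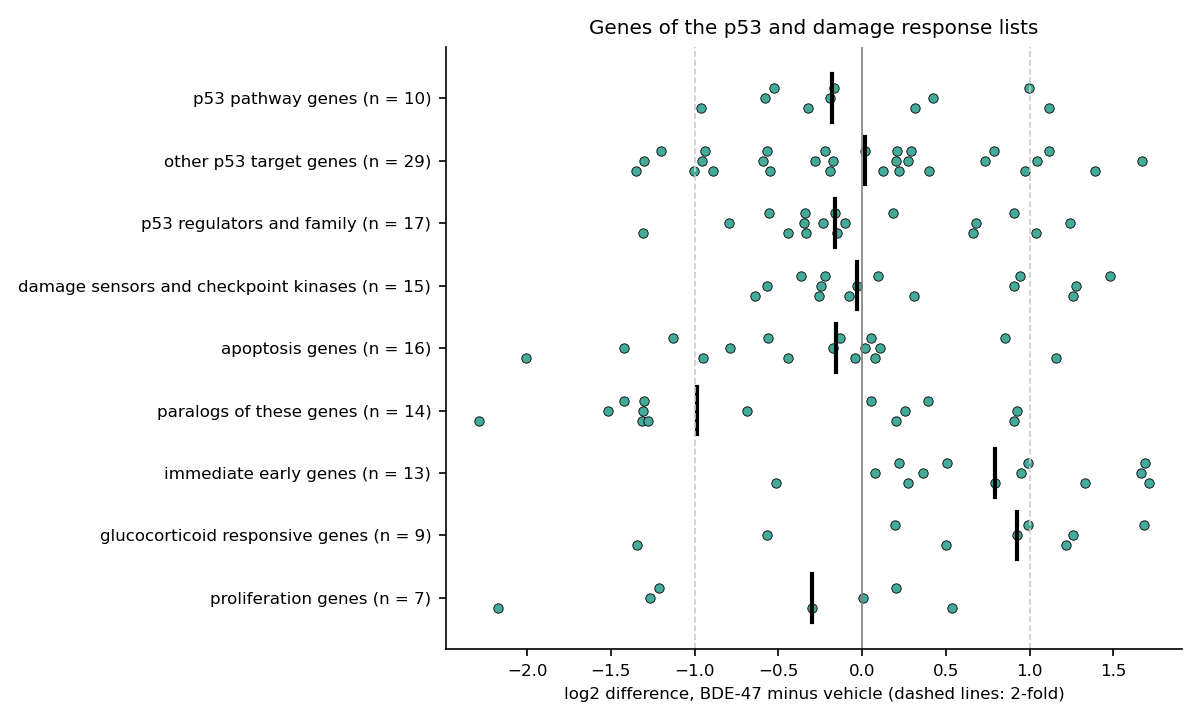
Difference of group means (BDE-47 minus vehicle, log2 CPM) of each tested gene in the p53 pathway and in the lists around it, with a point for each gene, a bar at the median of each list and dashed lines at 2-fold. The medians of the p53 pathway lists lie between -0.18 and 0.02, that of the paralogs is -0.98, and those of the immediate early and glucocorticoid responsive genes are 0.79 and 0.93.

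Of 18 paralogs of the 10 genes, 14 were tested, of which 6 had a higher and 8 a lower mean, 7 were past 2-fold and lower (against 13.2% of all genes tested), none was past 2-fold and higher, and the median was -0.98. None had an adjusted p under 0.05. The 7 were Gadd45g, Sesn2, Sesn3, Btg1, Ccng2, Trp63 and Bok. Ccng2, cyclin G2, which is driven by FoxO factors in resting cells, had levels of 2.67, 5.02 and 5.66 in vehicle mice and 0, 1.37 and 6.81 in BDE-47 mice. It was above 0 in 8 of 8 and 4 of 7 mice (difference -2.29, SE 0.99, limma adjusted p = 0.982, exact permutation p = 0.0521). Sesn2, the stress-induced sestrin, was above 0 in 6 of 8 vehicle and 2 of 7 BDE-47 mice. Its difference was -1.30 (limma adjusted p = 0.982, exact permutation p = 0.0264), and it lay near the floor, at 8.5 CPM or less in every mouse. Sesn3, the FoxO-driven sestrin, gave -1.31 (exact permutation p = 0.0628), with every mouse above 0. Gadd45g had medians of 5.95 and 4.74 (-1.28, exact permutation p = 0.0808), and Btg1 gave -1.52 (exact permutation p = 0.136). The kinase inhibitors Cdkn1b and Cdkn1c gave -0.69 and 0.93. Without the 3 mice with B cell or muscle markers, 5 of 13 paralogs tested were past 2-fold and lower, with a median of -0.90. All 3 sestrins had a lower mean with BDE-47, and none passed the adjusted test.

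Several members also answer to stress signals other than p53, so lists for those were set beside them. Of 13 tested immediate early genes, which respond within minutes to growth factors or handling, 12 had a higher mean with BDE-47 and 4 were past 2-fold and higher, with a median of 0.79. Over all genes tested, 49.1% had a higher mean and 13% were past 2-fold and higher. Of 9 tested glucocorticoid responsive genes, 7 had a higher mean and 3 were past 2-fold and higher, against the same shares over all genes tested, with a median of 0.93. The other 2 had a lower mean, 1 of them past 2-fold (13.2% of all genes tested were past 2-fold and lower). None of either list had an adjusted p under 0.05. Without the 3 mice named above, the medians were 0.86 and 0.46, and 4 immediate early genes and 1 glucocorticoid responsive gene were past 2-fold and higher. Of 7 tested proliferation genes, 3 were higher and 4 lower, with a median of -0.30. Past 2-fold and lower were 3 of the 7, against 13.2% of all genes tested. Vehicle 6 had a summed level of 1119 CPM over the whole list against 0 to 319 CPM elsewhere, and without the 3 mice 4 genes were tested, none past 2-fold, with a median of 0.10.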

How the data were processed

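Libraries were made with QuantSeq 3′ FWD from total RNA. The authors mapped reads with STAR (2.5.3a, build GRCm38, per the submitters' processing notes) and scaled them to CPM. The deposited values are log2 of CPM, where 0 stands for anything under 1 CPM. The log2 step and this floor were read from the values. Each mouse had 52636 rows, and 110 rows with a repeated name were left out in favour of the one with the highest mean. Depth was inferred from the steps between low values, each a whole number of reads (tolerance 0.05 reads). A count test was not run because reads under 1 CPM are lost.

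Groups came from the treatment label. Genes that reached 1 CPM in 7 mice or more were tested with limma 3.58.1 (trend, R 4.3.3) with Benjamini-Hochberg adjustment over all genes tested, and single genes with exact two-sided permutation tests (Python 3.11.15, scipy 1.17.1). The tests were tried on simulated data. The xenograft covariate of the study was not used. Genes past 2-fold were counted from group means, without a test. Mean levels of 3′ tags were not scaled to length. Each mouse is 1 animal, so p-values measure the spread between animals and libraries together.

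Besides the 10 genes, those named are a set of partners and paralogs, the 2 genes of each pathway list with the smallest limma p in each direction, and the 2 genes nearest in pattern to each member, of which some are not reported here. Tef, Wfdc18, Rap2b, Dcxr, Tnfrsf10b and the choice to leave out BDE-47 6 were added after their values were seen. Members and lists were chosen with earlier results of these data known. Alternatives were the filter on low values, log2(CPM + 1), median-of-ratios size factors, a replicate block, leaving out mice, the ratio of mean CPM and the share of mice above 0. Promoters are RefSeq's on GRCm38.p6.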

Additional observations from a re-analysis of the deposited data

Results flagged for a closer look

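A single mouse stood apart from its group in 5 of the 20 groups searched (10 genes in vehicle and in BDE-47 mice), by Dixon's test, in which the gap to the nearest value is divided by the range of the group. Chance alone marks about 1 in 20 groups of normally distributed values. Over all genes tested, whose values are also floored at 0, 11.3% of 19022 groups had a value apart in this way. Mdm2 was listed at 0 in vehicle 4, where the nearest vehicle mouse was at 4.82. Ccng1 was at 0.51 in vehicle 8, where the nearest vehicle mouse was at 4.17. Gadd45b was at 1.36 in BDE-47 5, where the nearest BDE-47 mouse was at 3.74. Btg2 was listed at 0 in vehicle 3, where the nearest vehicle mouse was at 4.19. Phlda3 was at 1.85 in vehicle 6, where the nearest vehicle mouse was at 5.41. All 5 were the lowest of their group, in 5 different mice.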

How the results depend on the processing

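Of 210 differences of the 10 genes recomputed under other settings, 190 kept their direction, 20 turned, and none had an adjusted p under 0.05 (lowest 0.919, limma). The replicate block and the fit without vehicle 8 gave the same differences, and both are counted. Leaving out 1 mouse turned Trp53 (-0.13 without vehicle 2, -0.12 without BDE-47 7), Cdkn1a (0.00251 without vehicle 8, 0.12 without BDE-47 2 or 5), Mdm2 (0.09 without vehicle 6, 0.05 without BDE-47 2, 0.61 without BDE-47 7) and Ccng1 (0.03 without vehicle 3, 0.37 without BDE-47 5, 0.22 without BDE-47 7). With 1 mouse left out, the ranges of these were -0.13 to 0.89 for Trp53, -0.76 to 0.12 for Cdkn1a, -0.86 to 0.61 for Mdm2 and -0.89 to 0.37 for Ccng1. Without vehicle 6 and 8, Mdm2 was 0.28, Bax 0.10 and Gadd45a -0.31, and without BDE-47 6 as well, a choice made after seeing the data, they were 0.039, 0.27 and -0.42. The ratio of mean CPM gave 0.016 for Mdm2 and 1.06 for Ccng1. By share of mice above 0, in percentage points, Trp53 was -1.79, Bax 10.7, Gadd45a -3.57 and Btg2 12.5, against the sign of their means. The causes were not tested.

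The number of the 10 genes past 2-fold, 1 as reported, was 2 with size factors, 3 with the ratio of mean CPM, 3 without the 3 mice, and 0 to 3 with 1 mouse left out. Size factors moved the median difference of all genes to 0.06 and the genes past 2-fold to 14.2% higher and 11.2% lower. Genes with an adjusted p under 0.05 were 0 as reported and 1 (Wfdc18, an epithelial gene, 1.78, limma adjusted p = 0.0435) without the 3 mice.

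Replicate numbers are shared by 7 pairs of mice. The correlations of their deviations ran from -0.0177 to 0.0528, and 3 vehicle mice correlated best with their own number. No spread of correlations between mice of unlike number is given beside these, so they cannot decide whether the numbers pair the mice. With the replicate block, the difference was 0.00251 for Cdkn1a, 1.37 for Gadd45b and 0.93 for Phlda3, and no gene passed the adjusted test.

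Values under 1 CPM are lost, which touches Sesn1 and Gadd45a most. With SEs near 1 on the log2 scale, an observed 2-fold difference would not have passed the adjusted test in any of the 10 genes. Even Phlda3, with the smallest SE (0.57), had a limma adjusted p of 0.982 at a difference of 1.00.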
